A study of Homo sapiens with 9 samples.

Results

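The collagen genes of human ES-2 cells, a line derived from an ovarian cancer, were examined by total RNA-seq upon depletion of IGF2BP1 or SRF. A collagen gene was taken as any protein-coding row whose symbol reads COL, a number, A and a number, and 44 of the 58174 listed genes met this definition. By the type of assembly that their chains form, 11 encode fibrillar collagens, 6 encode the type IV collagens of basement membranes and 27 encode other collagens. ES-2 cells were transfected with a control siRNA (siC), with siRNAs against IGF2BP1 (siIGF2BP1; IMP1 is another name of this gene) or with siRNAs against SRF (siSRF), and were harvested after 72 h, with 3 libraries per siRNA. The siRNAs were pools, a single cell line was used, and no second, independent pool was sequenced for either gene. IGF2BP1 is an oncofetal RNA-binding protein that stabilizes the mRNAs it binds, and the serum response factor SRF is a transcription factor that controls cytoskeletal and immediate early genes. The study asked to what extent both factors control the same genes, and both knockdowns were therefore compared with the same siC libraries.

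Collagens are secreted proteins in which 3 chains wind into a long helix rich in glycine and proline. Fibrillar collagens form the banded fibers of connective tissue, type IV collagens form the sheet-like network of basement membranes, and smaller classes decorate fibrils, build beaded filaments or span the cell membrane. In ovarian tissue and tumors, fibrillar collagens come mainly from fibroblasts and other stromal cells, and collagen made by the tumor cells themselves adds to the matrix they migrate through.

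The libraries held between 6421764 and 9416175 reads on genes. IGF2BP1 mRNA stood at 12.8 ± 0.689 FPKM with siC and 4.11 ± 0.0846 FPKM with siIGF2BP1 (SD, n = 3), FPKM being fragments per kilobase of transcript, scaled to mapped reads. SRF mRNA stood at 14.5 ± 1.28 FPKM with siC, 6.01 ± 0.714 FPKM with siIGF2BP1 and 1.47 ± 0.145 FPKM with siSRF. SRF thus fell in both knockdowns, by 1.26 and 3.22 on the log2 scale (adjusted p = 0.00111 and 6.1e-05, limma). The epithelial markers EPCAM, CDH1, KRT19 and MUC16 were at 0 in all siC libraries, whereas KRT7, KRT8 and KRT18 exceeded 1 FPKM and brought the summed level of 9 epithelial markers to 149 to 161 FPKM. PAX8 and WT1, the remaining epithelial markers, were detected with siC but averaged below 1 FPKM. The mesenchymal markers VIM, FN1, ZEB1 and CDH2 also exceeded 1 FPKM with siC, whereas S100A4, the last of this list of 5, was detected below 1 FPKM. In bulk RNA, a change in the level per cell cannot be told apart from a change in the share of cells that express a gene.

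ES-2 cells expressed a restricted set of collagens. Of the 44 genes, 16 averaged 1 FPKM or more over the 9 libraries, 5 lay between 0.1 and 1 FPKM, and 23 lay below 0.1 FPKM. In siC cells the most abundant mRNA was COL6A2 (46.8 ± 3.39 FPKM), followed by COL12A1 (37.3 ± 0.193), COL6A1 (33.6 ± 0.726), COL4A2 (16.1 ± 1.204) and COL13A1 (15.3 ± 0.972), each SD, n = 3. COL4A2 and COL13A1 overlapped between libraries, and so did COL5A2 and COL18A1, the next in this order. The 3 most abundant genes were separated from each other in every siC library. Of the chief collagens of stromal fibroblasts, COL1A1 was expressed (3.501 ± 0.719 FPKM with siC, SD, n = 3), whereas COL1A2 and COL3A1 were nearly absent. COL1A2 had no read with siC, 4 reads with siIGF2BP1 and 1 read with siSRF over 3 libraries each, and COL3A1 had 2 reads, both with siSRF. At this depth, 3 reads per library, the limit that a count of 0 allows, correspond to 0.0392 FPKM for COL1A2 and 0.0641 FPKM for COL3A1 with siC (counting error only).

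**Figure D1:**
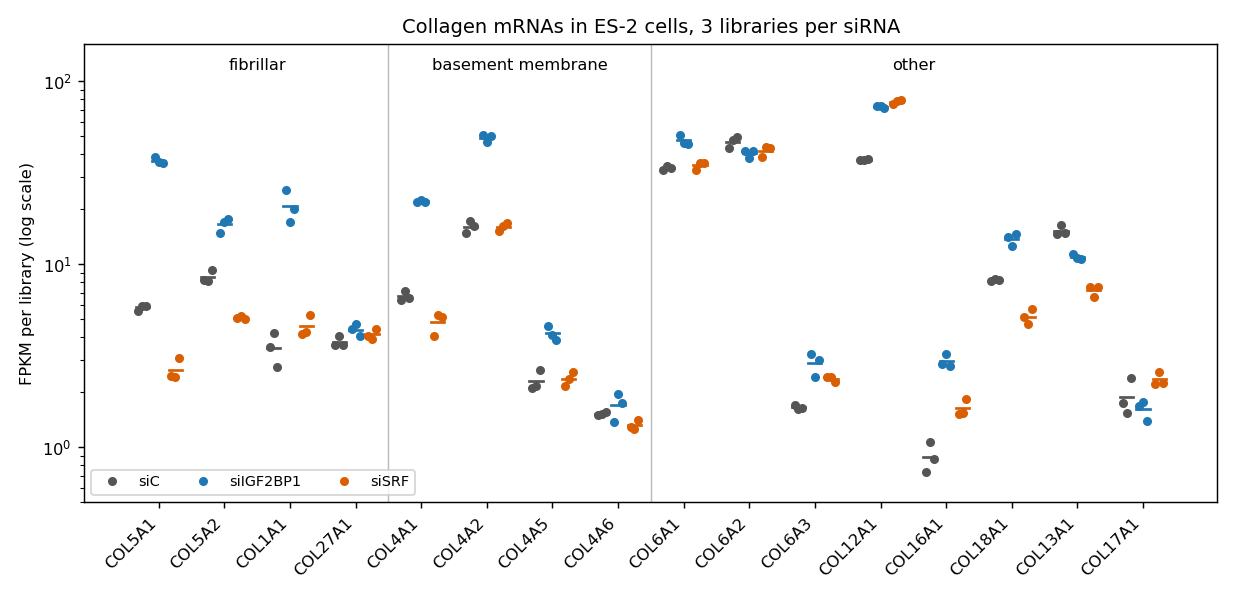
FPKM of the 16 collagen genes that averaged 1 FPKM or more, on a log axis, with 1 point per library and a line at the mean of each siRNA (gray siC, blue siIGF2BP1, orange siSRF). COL5A1, COL1A1, COL4A1 and COL4A2 stand well above siC with siIGF2BP1, and COL12A1 stands above siC in both knockdowns.

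Upon IGF2BP1 depletion, 10 of the 16 expressed collagens rose, a count that dropped to 6 without siIGF2BP1 replicate 2 and to 5 without siIGF2BP1 replicate 3. A gene was called when its adjusted p was at most 0.01 (limma on log2(FPKM + 0.1), Benjamini-Hochberg adjustment over all genes kept, the threshold of the study). Of the 16 collagen genes of at least 1 FPKM, 1 fell and 5 did not pass the test, and their median log2 fold change was 0.80, compared with -0.02 over the 10380 protein-coding genes of at least 1 FPKM. Among these 10380 genes, 6.39% rose and 7.1% fell. Of all 44 collagen genes, 21 passed the filter on low values in this comparison, with the same 10 and 1 called, and over the 12512 protein-coding genes that passed it 5.52% rose and 5.91% fell. The summed level of all 44 genes was 187, 200.2 and 198 FPKM with siC, 363, 340 and 348 FPKM with siIGF2BP1 and 205, 217 and 223 FPKM with siSRF. Collagen mRNAs thus took 0.158% ± 0.00315 of the reads on genes with siC, 0.318% ± 0.00845 with siIGF2BP1 and 0.187% ± 0.0081 with siSRF (SD, n = 3).

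Upon SRF depletion the collagens did not move as a group. Of the 16 genes 1 rose, 4 fell (2 without siSRF replicate 2) and 11 did not pass the test, with a median log2 fold change of 0.02 beside 0.04 over all protein-coding genes of at least 1 FPKM. Among those, 13.2% rose and 10.2% fell. Of all 44 collagen genes, 20 passed the filter, with the same calls, and over the 12381 protein-coding genes that passed it 11.1% rose and 8.67% fell.

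**Figure D2:**
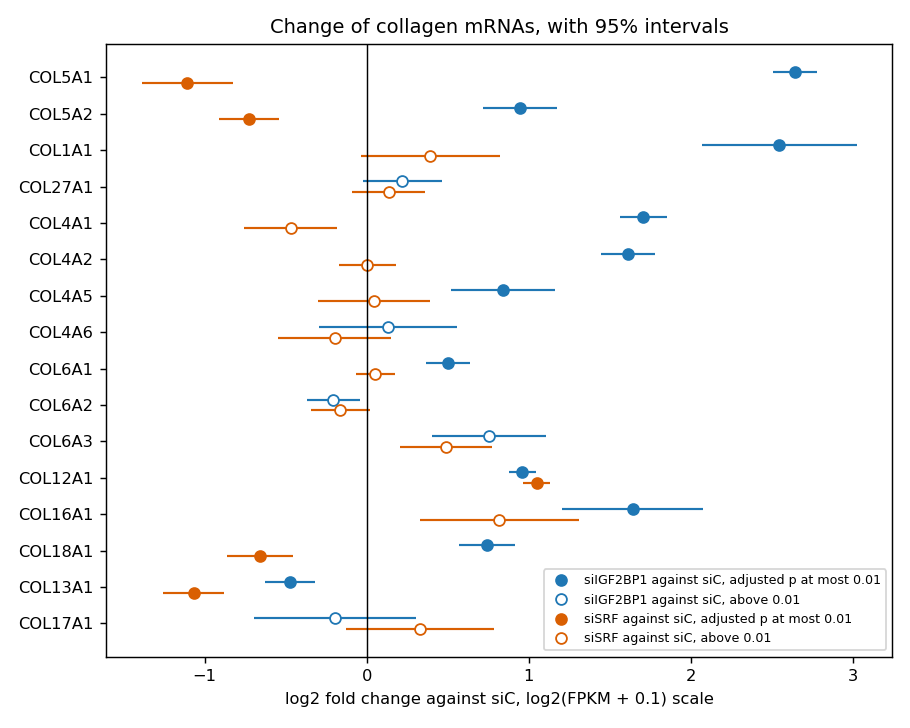
Log2 fold change against siC of the same 16 genes with its 95% interval (n = 3 libraries per siRNA), filled where the adjusted p was at most 0.01 and open where it was above. All filled blue points (siIGF2BP1) lie to the right of 0 except COL13A1, whereas the filled orange points (siSRF) lie to the left except COL12A1.

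Among the fibrillar collagens, COL5A1, COL5A2 and COL1A1 rose upon IGF2BP1 depletion and COL27A1 was not called. The summed fibrillar level was 21.6 ± 0.647 FPKM with siC, 79.1 ± 4.49 FPKM with siIGF2BP1 and 16.5 ± 1.15 FPKM with siSRF (SD, n = 3). COL5A1 (chromosome 9, 134641803 to 134844843, plus strand, GRCh38) encodes a chain of type V collagen, a minor component of type I fibrils that governs their nucleation and diameter. It read 5.58, 5.91 and 5.96 FPKM with siC, 38.7, 36.0 and 35.6 FPKM with siIGF2BP1 and 2.47, 2.42 and 3.09 FPKM with siSRF. The 3 groups did not overlap, and COL5A1 was the highest fibrillar mRNA with siIGF2BP1 and the lowest of the 4 fibrillar mRNAs above 1 FPKM with siSRF. The log2 fold change was 2.64 (95% interval 2.504 to 2.78, adjusted p = 7.0e-05) with siIGF2BP1 and -1.11 (-1.39 to -0.82, adjusted p = 0.00158) with siSRF.

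The bases upstream of COL5A1 are shown because this gene had the largest log2 difference between the knockdowns of the collagens tested. The stretch below covers chr9:134641553-134641802 on the plus strand (GRCh38.p14, RefSeq), ending at the base before the first transcribed base, with the letters CCGCCC, the reverse complement of the GC box GGGCGG, in capitals:
COL5A1 upstream: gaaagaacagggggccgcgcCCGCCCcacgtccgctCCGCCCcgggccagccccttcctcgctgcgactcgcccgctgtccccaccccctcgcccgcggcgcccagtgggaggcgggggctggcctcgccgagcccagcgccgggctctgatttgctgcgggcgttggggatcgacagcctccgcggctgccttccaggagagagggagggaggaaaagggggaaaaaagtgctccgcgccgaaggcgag
The GC box occurred 2 times in this stretch, which is 74% G and C. Promoter windows of 250 bases before to 50 bases after the first base were found in RefSeq for 32 of the 44 collagen genes and for 13 of the 16 expressed ones (COL1A1, COL5A2 and COL6A1 had no entry). A GC box on either strand lay in at least 1 listed promoter of 21 of these 32 genes. Counted per promoter and not per gene, it lay in 44.95% of 35116 promoters of all genes, so the 2 shares are of unlike units. The CArG box, the motif that SRF is known to bind, lay in a listed window of 0 of the 32 genes and, counted per promoter, in 1.29% of all promoters. This says only that the motif does not occur within these 300 bases.

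COL5A2 (chromosome 2, 189031898 to 189225312, minus strand) encodes the partner chain of COL5A1 in the most common form of type V collagen. It read 8.21, 8.06 and 9.29 FPKM with siC, 14.8, 17.1 and 17.8 FPKM with siIGF2BP1 and 5.09, 5.20 and 5.00 FPKM with siSRF. The groups again did not overlap, with log2 fold changes of 0.95 (0.72 to 1.17, adjusted p = 0.00178) and -0.73 (-0.91 to -0.54, adjusted p = 0.00157). The 2 chains did not change to the same extent. The ratio of COL5A1 to COL5A2 was 0.684 ± 0.046 with siC, 2.25 ± 0.33 with siIGF2BP1 and 0.523 ± 0.0828 with siSRF (SD, n = 3).

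COL1A1 (chromosome 17, 50184101 to 50201632, minus strand) encodes the major chain of type I collagen, the main protein of tendon, bone and tumor stroma. Its level was 3.55, 4.20 and 2.76 FPKM with siC, 25.6, 17.1 and 19.98 FPKM with siIGF2BP1 and 4.18, 4.28 and 5.29 FPKM with siSRF. All siIGF2BP1 libraries stood above all others, while siC and siSRF overlapped. COL1A1 rose by 2.54 (2.07 to 3.02, adjusted p = 8.5e-04) with siIGF2BP1, and its log2 fold change was 0.39 (-0.04 to 0.82, adjusted p = 0.176) with siSRF. Its usual partner COL1A2 stayed at 0.0246 FPKM or less in every library. COL27A1, a fibrillar collagen of cartilage, read 3.61 to 4.05 FPKM with siC, 4.05 to 4.73 FPKM with siIGF2BP1 and 3.93 to 4.41 FPKM with siSRF and was not called.

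COL5A3, a further type V chain, was detected with siIGF2BP1 only. Its 53 reads corresponded to 0.406, 0.305 and 0.297 FPKM, and no read fell on it in the 3 siC or the 3 siSRF libraries. Against the limit of 3 reads per library, 0.0647 FPKM with siC, COL5A3 was at least 5.19-fold higher with siIGF2BP1. The test against siC did not pass (adjusted p = 0.0206), and it passed the filter through the siIGF2BP1 libraries alone. The remaining 6 fibrillar genes, among them COL1A2 and COL3A1, were below the filter in every comparison.

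The expressed type IV collagens of basement membranes are encoded by 2 gene pairs, and the rise with siIGF2BP1 comprised both members of 1 pair and 1 member of the other. COL4A1 and COL4A2, the ubiquitous type IV chains, are transcribed in opposite directions from a shared promoter on chromosome 13. The 126 bases between their RefSeq first bases are shown because both genes rose with siIGF2BP1. They lie at chr13:110307158-110307283 (GRCh38.p14, plus strand, COL4A1 to the left and COL4A2 to the right), and the capitals mark a CCAAT box, the letters CCCTCCCC and a GC box:
COL4A1-COL4A2 shared promoter: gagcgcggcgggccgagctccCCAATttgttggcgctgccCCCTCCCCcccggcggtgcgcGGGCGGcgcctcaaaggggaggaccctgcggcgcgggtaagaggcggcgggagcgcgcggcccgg
Each motif occurred 1 time on the strand shown and they did not overlap. On either strand, CCAAT lay in 34.6%, CCCTCCCC in 13.6% and GGGCGG in 44.95% of the 35116 promoters of all genes. Those promoters are windows of 300 bases, longer than the 126 bases shown, so the shares are of unlike lengths.

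COL4A1 (chromosome 13, 110148963 to 110307157, minus strand) read 6.42, 7.19 and 6.52 FPKM with siC, 22.0, 22.4 and 21.9 FPKM with siIGF2BP1 and 4.07, 5.29 and 5.17 FPKM with siSRF. COL4A2 (chromosome 13, 110305812 to 110513209, plus strand) read 14.8, 17.2 and 16.2 FPKM with siC, 50.8, 46.7 and 50.2 FPKM with siIGF2BP1 and 15.2, 16.3 and 16.9 FPKM with siSRF. Both genes stood far above siC in every siIGF2BP1 library, with log2 fold changes of 1.71 (1.56 to 1.85, adjusted p = 1.0e-04) for COL4A1 and 1.61 (1.44 to 1.78, adjusted p = 1.4e-04) for COL4A2. With siSRF, COL4A1 lay below all siC libraries but was not called (-0.47, -0.76 to -0.18, adjusted p = 0.0335), and COL4A2 overlapped with siC (0.00, -0.17 to 0.18, adjusted p = 0.994). The ratio of COL4A1 to COL4A2 was 0.417 ± 0.0149 with siC, 0.449 ± 0.0254 with siIGF2BP1 and 0.300 ± 0.029 with siSRF (SD, n = 3). In the annotation used for these positions (GENCODE v44) a longer COL4A2 transcript starts inside the COL4A1 gene, and how reads in the overlap were assigned was not given in the sources used here.

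COL4A5 and COL4A6 form the second expressed pair, also head to head, with 379 bases between their first bases on the X chromosome. Both encode type IV chains of more restricted tissues. COL4A5 read 2.097, 2.17 and 2.64 FPKM with siC, 4.61, 4.10 and 3.86 FPKM with siIGF2BP1 and 2.17, 2.36 and 2.59 FPKM with siSRF, and rose with siIGF2BP1 (0.84, 0.52 to 1.16, adjusted p = 0.00891). COL4A6 ranged from 1.501 to 1.56 FPKM with siC, from 1.38 to 1.96 FPKM with siIGF2BP1 and from 1.27 to 1.40 FPKM with siSRF and was not called in any comparison. Their ratio was 1.51 ± 0.161, 2.55 ± 0.699 and 1.79 ± 0.11 with siC, siIGF2BP1 and siSRF, respectively. Neither COL4A3 nor COL4A4, the chains of the mature kidney filter, passed the filter on low values. The summed type IV level was 26.6 ± 1.66 FPKM with siC, 77.2 ± 1.84 FPKM with siIGF2BP1 and 24.6 ± 1.72 FPKM with siSRF (SD, n = 3).

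**Figure D3:**
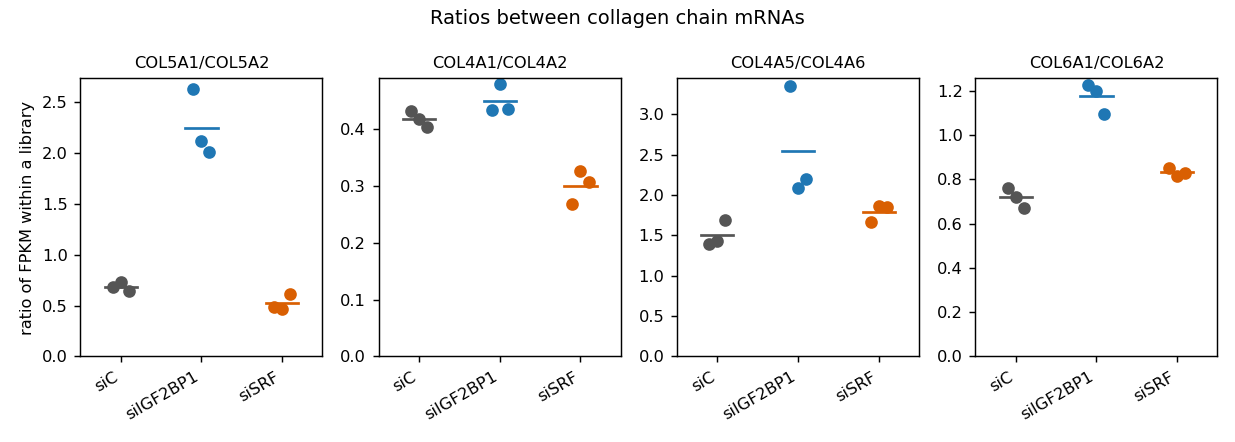
Ratio of FPKM between 2 collagen chains within each library (points) and its mean (lines) for siC, siIGF2BP1 and siSRF, on linear axes that start at 0. The COL5A1 to COL5A2 ratio lies between 2.004 and 2.62 with siIGF2BP1 and between 0.466 and 0.733 in the other libraries, whereas the COL4A1 to COL4A2 ratio is lowest with siSRF.

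Type VI collagen forms beaded filaments close to the cell surface. Its chain mRNAs COL6A2 and COL6A1 ranked 1 and 3 among the collagen mRNAs in siC cells. COL6A1 (chromosome 21, 45981770 to 46005050, plus strand) read 32.9, 34.4 and 33.4 FPKM with siC, 51.1, 46.1 and 45.7 FPKM with siIGF2BP1 and 32.8, 35.6 and 36.0 FPKM with siSRF. It rose with siIGF2BP1 by 0.50 (0.37 to 0.64, adjusted p = 0.00262) and was not called with siSRF (0.05, -0.07 to 0.17). COL6A2, its neighbor on chromosome 21, was not called in either knockdown (43.1 to 49.7 FPKM with siC, 38.3 to 41.7 FPKM with siIGF2BP1 and 38.5 to 43.6 FPKM with siSRF), so that the ratio of COL6A1 to COL6A2 was 0.719 ± 0.0456 with siC, 1.18 ± 0.07 with siIGF2BP1 and 0.834 ± 0.0187 with siSRF (SD, n = 3). COL6A3, the longest of the type VI chains expressed, was far less abundant, at 1.66 ± 0.0448, 2.89 ± 0.412 and 2.38 ± 0.0885 FPKM. Its log2 fold changes of 0.75 (adjusted p = 0.0178) with siIGF2BP1 and 0.49 (adjusted p = 0.027) with siSRF did not pass the test. No knockdown library overlapped with siC for this gene, and limma-voom on recovered reads called both changes (adjusted p = 2.1e-07 and 3.6e-05).

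Of the collagens that bind to fibril surfaces, COL12A1 rose in both knockdowns. COL12A1 (chromosome 6, 75084326 to 75206267, minus strand), which links fibrils to the surrounding matrix, read 37.1, 37.2 and 37.5 FPKM with siC, 73.0, 72.9 and 71.7 FPKM with siIGF2BP1 and 75.2, 77.6 and 78.8 FPKM with siSRF. No knockdown library overlapped with siC, and the log2 fold changes were similar with siIGF2BP1 and siSRF (0.96, 0.88 to 1.04, adjusted p = 1.0e-04; 1.05, 0.96 to 1.13, adjusted p = 6.1e-05). COL12A1 took 19.1% of the summed collagen level with siC, 20.7% with siIGF2BP1 and 35.9% with siSRF. COL16A1 (chromosome 1, 31652263 to 31704319, minus strand), a related minor collagen, read 0.735, 1.06 and 0.865 FPKM with siC, 2.86, 3.22 and 2.79 FPKM with siIGF2BP1 and 1.51, 1.54 and 1.84 FPKM with siSRF. It rose with siIGF2BP1 (1.64, 1.21 to 2.07, adjusted p = 0.00253), and its change with siSRF was not called (0.82, 0.33 to 1.31, adjusted p = 0.031), although no siSRF library overlapped with siC.

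COL18A1 (chromosome 21, 45405165 to 45513720, plus strand), a basement membrane proteoglycan whose C-terminal fragment is endostatin, moved in opposite directions. It read 8.08, 8.29 and 8.22 FPKM with siC, 14.1, 12.6 and 14.7 FPKM with siIGF2BP1 and 5.13, 4.71 and 5.70 FPKM with siSRF. The groups did not overlap, and the log2 fold changes were 0.74 (0.57 to 0.91, adjusted p = 0.00163) and -0.66 (-0.86 to -0.45, adjusted p = 0.00304).

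The transmembrane collagen COL13A1 (chromosome 10, 69801880 to 69964275, plus strand), found at adhesion sites and the neuromuscular junction, fell in both knockdowns. Its values were 14.7, 16.4 and 14.8 FPKM with siC, 11.4, 10.8 and 10.7 FPKM with siIGF2BP1 and 7.54, 6.67 and 7.53 FPKM with siSRF, without overlap between the groups. The log2 fold change was -0.47 (-0.63 to -0.32, adjusted p = 0.00538) with siIGF2BP1 and -1.07 (-1.26 to -0.88, adjusted p = 5.2e-04) with siSRF. COL17A1, the transmembrane collagen of hemidesmosomes, ranged from 1.40 to 2.60 FPKM over the 9 libraries and was not called.

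Of these calls against siC, those of COL12A1, COL1A1, COL4A1, COL4A2 and COL5A1 with siIGF2BP1 and of COL12A1, COL13A1 and COL5A1 with siSRF held whichever single library was left out. With siIGF2BP1, COL13A1 and COL4A5 lost the call without any 1 of the 6 libraries (adjusted p 0.0152 to 0.0294 and 0.0131 to 0.0358). COL6A1 lost it in all such fits except that without siIGF2BP1 replicate 1 (0.00755 to 0.0138), and COL16A1 without siC replicate 3 or any siIGF2BP1 library (0.00631 to 0.0168). COL5A2 lost it without siC replicate 1 or siIGF2BP1 replicates 2 or 3 (0.00539 to 0.0121), and COL18A1 without siIGF2BP1 replicates 1 or 3 (0.00405 to 0.0108). With siSRF, COL18A1 lost the call in all fits except that without siSRF replicate 3 (0.00577 to 0.0165) and COL5A2 without siSRF replicate 2 (0.0102). No direction changed.

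The 2 knockdowns were also compared directly, with the same 6 knockdown libraries that enter the contrasts above. Of the 16 genes of at least 1 FPKM, 10 were higher with siIGF2BP1 than with siSRF and 0 were lower (median log2 difference 0.69 beside -0.06 over protein-coding genes of at least 1 FPKM, of which 15.5% were higher and 21.8% lower). At an unadjusted p under 0.05, limma placed COL12A1 and COL17A1 lower, and of these 16 genes COL17A1 was called lower by limma-voom on recovered reads. Of all 44 collagen genes, 20 passed the filter here, and of the 12507 protein-coding genes that passed it 13.7% were higher and 18.3% lower. Among these 20, COL5A3 was also called higher, but it had passed the filter through the siIGF2BP1 libraries alone, and its call is not counted here. The log2 difference was 3.75 (3.501 to 3.995, adjusted p = 1.1e-05) for COL5A1, 2.17 (1.92 to 2.43, adjusted p = 4.6e-05) for COL4A1, 2.15 (1.75 to 2.55, adjusted p = 2.3e-04) for COL1A1 and 1.67 (1.48 to 1.87, adjusted p = 4.4e-05) for COL5A2. COL4A2 (1.61), COL18A1 (1.40), COL16A1 (0.82), COL4A5 (0.79), COL13A1 (0.59) and COL6A1 (0.45) differed in the same direction. COL12A1 was not called (-0.09, -0.17 to -0.01, adjusted p = 0.0868). The differences of COL16A1, COL4A5 and COL5A3 lost their call when single libraries were left out: COL5A3 without any 1 of the 6 (adjusted p 0.0257 to 0.0373), COL16A1 in all fits except that without siSRF replicate 3 (0.00727 to 0.0194), and COL4A5 without replicates 1 or 2 of either group (0.00662 to 0.0138).

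Of the 28 collagen genes below 1 FPKM, 6 had no read in any library and a further 13 had fewer than 10 reads in all. COL9A3, a fibril-associated collagen of cartilage, was the highest of them at 0.644 ± 0.234, 0.479 ± 0.135 and 0.718 ± 0.182 FPKM and was not called. COL8A1, a short-chain network collagen of vessel walls, read 0.205 ± 0.0468 FPKM with siC, 0.137 ± 0.0103 FPKM with siIGF2BP1 and 0.0324 ± 0.0239 FPKM with siSRF. COL10A1, the network collagen of growth plate cartilage, read 0.0873 ± 0.0534, 0.0114 ± 0.0197 and 0.219 ± 0.0405 FPKM. Neither was called against siC, where COL10A1 passed the filter with siSRF only. Between the knockdowns, COL10A1 (28 reads in all) was lower with siIGF2BP1 without a limma call (-1.52, adjusted p = 0.0403). Limma-voom on recovered reads called it lower (adjusted p = 2.7e-04). Nearest to the filter of 0.1 FPKM were COL9A2 just above (0.114 FPKM) and COL24A1 just below (0.0548 FPKM) for siIGF2BP1 against siC, COL8A1 (0.119) and COL25A1 (0.0678) for siSRF against siC, and COL10A1 (0.115) and COL9A2 (0.0973) for the direct comparison. The antisense and pseudogene rows named after collagens held at most 4 reads each.

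Collagen chains are hydroxylated, folded, exported, trimmed and cross-linked by a dedicated set of enzymes and chaperones, and a list of 56 such genes, collagen receptors and fibril partners was examined beside the collagens. Of these, 45 passed the filter in each comparison. Upon IGF2BP1 depletion 23 rose and 1 fell (51.1% and 2.22%, beside 5.52% and 5.91% of all protein-coding genes tested), with a median log2 fold change of 0.49 beside -0.01. The 23 became 14 without siC replicate 1 or siIGF2BP1 replicate 3 and 15 without siIGF2BP1 replicates 1 or 2. Upon SRF depletion 6 rose and 10 fell (13.3% and 22.2%, beside 11.1% and 8.67% of all), with a median of -0.22 beside 0.02, so that the share that rose was near that of all genes. The 10 became 6 without siSRF replicates 1 or 2. Compared directly, 27 were higher and 4 lower with siIGF2BP1 than with siSRF (60% and 8.89%, beside 13.7% and 18.3% of all). By role, siIGF2BP1 raised 6 of 14 tested genes of proline and lysine modification, 4 of 10 for chaperoning and export, 3 of 5 for propeptide removal, 5 of 6 for cross-linking, 4 of 8 receptors and 1 of 2 fibril partners. The chaperone and export group also holds CREB3L1, a transcription factor, and TMEM38B, a cation channel, of which CREB3L1 rose. With siSRF, 2 rose and 2 fell among the modifying enzymes, and 3 rose and 2 fell among cross-linking enzymes. In the chaperone and export group 1 rose (TMEM38B) and 3 fell (CREB3L1, FKBP10 and SERPINH1). In propeptide removal 2 fell, 1 fibril partner fell, and 0 receptors were called. The receptors nearest to a call were ITGA10 and ITGB1, higher, and ITGA1 and MRC2, lower (adjusted p 0.0169 to 0.0182).

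**Figure D4:**
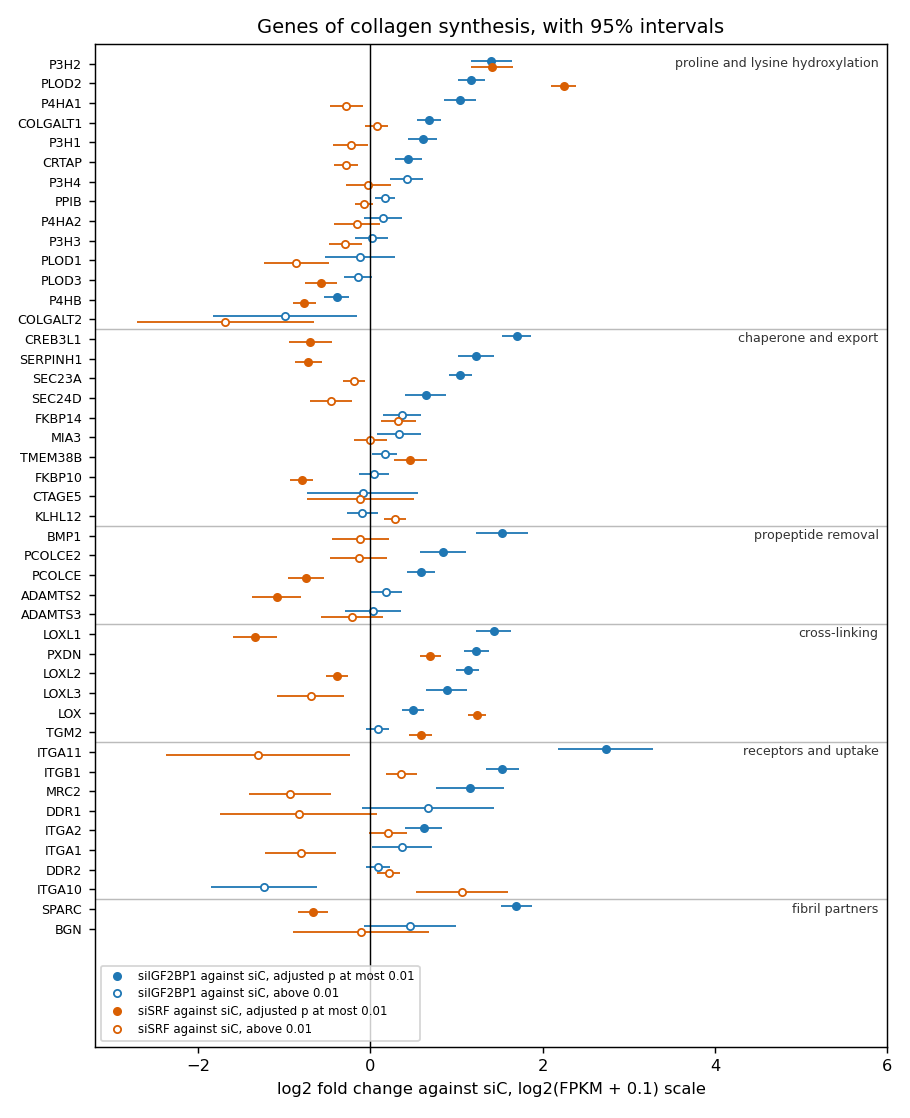
Log2 fold change against siC with its 95% interval for the 45 tested genes of collagen synthesis (blue siIGF2BP1, orange siSRF, n = 3 libraries per siRNA), grouped by role and filled where the adjusted p was at most 0.01. LOXL1, CREB3L1, SERPINH1 and SPARC lie on opposite sides of 0 in the 2 knockdowns, and PLOD2, P3H2, PXDN and LOX lie to the right in both.

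The mRNAs of SERPINH1, CREB3L1, SPARC, LOXL1, LOXL2 and PCOLCE rose with siIGF2BP1 and fell with siSRF. SERPINH1, the collagen chaperone HSP47, read 35.9, 39.6 and 35.0 FPKM with siC, 94.5, 77.4 and 86.6 FPKM with siIGF2BP1 and 21.4, 23.4 and 22.1 FPKM with siSRF (log2 fold changes 1.22 and -0.72, adjusted p = 6.0e-04 and 9.2e-04). CREB3L1, a membrane-bound transcription factor that activates COL1A1, stood at 4.69 to 4.79 FPKM with siC, 14.5 to 16.6 FPKM with siIGF2BP1 and 2.71 to 3.26 FPKM with siSRF (1.70 and -0.70, adjusted p = 1.4e-04 and 0.00473). SPARC, a secreted collagen-binding protein, read 77.9, 77.2 and 68.5 FPKM with siC, 259.7, 226 and 237 FPKM with siIGF2BP1 and 43.8, 49.3 and 47.4 FPKM with siSRF (1.69 and -0.67, adjusted p = 1.5e-04 and 0.00157). None of these 3 genes overlapped between groups. The lysyl oxidase homologs LOXL1 (11.4, 30.9 and 4.46 FPKM as means of siC, siIGF2BP1 and siSRF) and LOXL2 (31.2, 68.4 and 23.8 FPKM), which initiate cross-links, followed the same order. The siSRF calls of CREB3L1 and LOXL2 were lost in all fits without a single library except those without siSRF replicate 3 for CREB3L1 and siC replicate 1 for LOXL2 (adjusted p up to 0.0233 and 0.0193). PCOLCE averaged 38.2, 57.5 and 22.7 FPKM with siC, siIGF2BP1 and siSRF (0.59 and -0.75, adjusted p = 0.00329 and 0.00213). Its siIGF2BP1 call was lost in 5 of 6 such fits (up to 0.02085) and its siSRF call without siSRF replicate 2 (0.0103).

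Other enzymes rose in both knockdowns. PLOD2, which hydroxylates lysines in the telopeptides and so sets the type of cross-link, read 16.8, 15.4 and 18.0 FPKM with siC, 37.8, 38.6 and 36.8 FPKM with siIGF2BP1 and 79.3, 78.3 and 80.4 FPKM with siSRF (1.17 and 2.24, adjusted p = 3.1e-04 and 4.4e-05). It stood higher with siSRF than with siIGF2BP1 in every library. Lysyl oxidase itself, LOX, stood at 104, 147 and 246 FPKM (means of siC, siIGF2BP1 and siSRF; 0.49 and 1.24, adjusted p = 0.00235 and 6.7e-05), with the siIGF2BP1 call lost without siC replicate 1 or siIGF2BP1 replicates 2 or 3 (adjusted p up to 0.0154). The prolyl hydroxylase P3H2, which prefers type IV collagen, rose in both (2.69, 7.27 and 7.29 FPKM), with a difference between the knockdowns of 0.00 (-0.19 to 0.19),, and PXDN, the peroxidase that cross-links type IV collagen, rose more with siIGF2BP1 (9.06, 21.4 and 14.7 FPKM). TGM2, a transglutaminase, rose with siSRF (122, 129 and 183 FPKM) and was not called with siIGF2BP1, and TMEM38B, a cation channel of the endoplasmic reticulum, was called with siSRF (7.14, 8.01 and 9.88 FPKM; adjusted p = 0.00829), a call lost without any 1 of the 6 libraries (up to 0.029).

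The subunits of prolyl 4-hydroxylase did not change together. P4HA1, a catalytic subunit of prolyl 4-hydroxylase, rose with siIGF2BP1 (29.3, 60.2 and 24.1 FPKM as means of siC, siIGF2BP1 and siSRF; 1.04, adjusted p = 6.9e-04), whereas its partner P4HB, the disulfide isomerase, fell in both knockdowns (123, 93.8 and 72.3 FPKM; -0.39 and -0.77, adjusted p = 0.00828 and 5.1e-04). The P4HB call with siIGF2BP1 was lost without any 1 of the 6 libraries (adjusted p up to 0.0378). CRTAP, of the prolyl 3-hydroxylation complex, rose with siIGF2BP1 (56.7, 77 and 46.6 FPKM; 0.44, adjusted p = 0.00651), also lost without any 1 library (up to 0.0284). P3H1 of the same complex rose as well (10.8, 16.5 and 9.19 FPKM; 0.61, adjusted p = 0.00308), lost in 5 of 6 such fits (up to 0.0203). PPIB, the cyclophilin of this complex and the most abundant gene of the list, was not called against siC (334, 376 and 317 FPKM). Every siIGF2BP1 library nevertheless lay above siC for PPIB. FKBP10, a chaperone of type I procollagen, fell with siSRF (63.3, 65.3 and 36.3 FPKM; -0.80, adjusted p = 5.1e-04), and so did ADAMTS2, which removes the N-propeptide of fibrillar collagens (7.14, 8.12 and 3.31 FPKM; -1.09, adjusted p = 0.00168), a call lost without siSRF replicate 1 (0.0104). The export coat gene SEC23A rose with siIGF2BP1 (16.9, 35.0 and 14.9 FPKM; 1.04, adjusted p = 2.4e-04). ITGB1, the common beta subunit of the collagen-binding integrins, rose with siIGF2BP1 from 81.1, 75.3 and 92.0 FPKM to 229, 239 and 247 FPKM (1.53, adjusted p = 2.4e-04) and read 108, 105 and 105 FPKM with siSRF (0.36, adjusted p = 0.0173, and 0.00525 without siC replicate 3). ITGA10, an alpha subunit that pairs with it, was not called against siC (0.882, 0.317 and 1.98 FPKM) and was lower with siIGF2BP1 than with siSRF (-2.29, adjusted p = 8.7e-04). The other alpha subunits listed, ITGA11, ITGA1 and ITGA2, were higher in that comparison (4.03, 1.18 and 0.41, adjusted p = 2.0e-04, 0.00149 and 0.00312). Against siC, ITGA11 (2.73, adjusted p = 0.00103) and ITGA2 (0.62, adjusted p = 0.0070) rose with siIGF2BP1, and ITGA1 was not called. Most or all fits without a single library lost the ITGA2 calls (adjusted p up to 0.0313 against siC and 0.0148 between the knockdowns).

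Some properties of the libraries and genes are given beside these results. The summed level of 9 epithelial markers was 149 to 161 FPKM with siC, 192 to 220 FPKM with siIGF2BP1 and 217 to 222 FPKM with siSRF, and that of 5 mesenchymal markers 1092 to 1110, 896 to 977 and 882 to 933 FPKM. The mesenchymal sums came mostly from the highest single marker, with means of 1055, 883 and 854 FPKM. S100A4 of the same list averaged 1 FPKM or more in the knockdowns only. Of 11 markers of endothelial, immune, muscle and liver cells, only CDH5 exceeded 1 FPKM (9.39, 15.2 and 7.93 FPKM as means), and the sums of this list ranged from 8.54 to 11.2, 14.99 to 16.7 and 7.71 to 8.67 FPKM. ALB, APOA1, CD3E and PTPRC were at 0 in all libraries. The 16 expressed collagens were longer (median 8722 bases beside 5136) and richer in G and C (median 58.2% beside 47.1%) than protein-coding genes of at least 1 FPKM. The part of these markers and properties in the changes was not tested, apart from fits with the trends along length and GC content removed. In those, all calls of collagens with siIGF2BP1 against siC stayed, whereas with siSRF the call of COL18A1 was lost and COL16A1, COL4A2 and COL6A1 were called higher.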

How the data were processed

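Total RNA of ES-2 cells was depleted of ribosomal RNA and sequenced by the authors from directional libraries. According to the submitters' processing notes, cutadapt 1.14, HISAT2 2.1.0, SAMtools 1.5, featureCounts 1.5.3 and edgeR 3.18.1 were used on hg38, and FPKM values were deposited per library by the authors in 2 tables that share the siC columns. The authors' fold changes, p-values and FDRs in these tables were not used. FPKM times gene length gave whole reads for 100% of values (tolerance 0.01), which gave the depth of each library. The strand setting of the counting was not given in the sources used here.

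Log2(FPKM + 0.1) was fitted with limma 3.58.1 (R 4.3.3; empirical Bayes with a mean trend) on the 6 libraries of each comparison, for genes averaging 0.1 FPKM or more, and p-values were Benjamini-Hochberg adjusted over all genes kept (threshold 0.01). Fold changes on this scale are understated for low genes. The script was tested on simulated data. Single values allow no p below 0.1 in a two-sided exact permutation test with 3 libraries per group, and such p-values are not given. Chain ratios and summed levels are descriptions. No libraries of a group agreed within sampling noise. The labels number the replicates without saying whether they were separate cultures, so p-values measure the spread between these libraries, which may be technical. Same-numbered libraries did not deviate together, and the numbers were not used for pairing.

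All collagens of at least 1 FPKM or with a call were named, and of the synthesis list up to 6 calls with the smallest p per comparison and direction, plus modifying, chaperone, cross-linking and receptor genes of at least 50 FPKM. COL1A2, COL3A1, COL4A3, COL4A4, COL8A1, COL9A3 and COL10A1 were named in addition, after their values were seen. So were CDH5, P3H1, PCOLCE, MRC2 and the alpha subunits ITGA1, ITGA2 and ITGA11. Members and lists were chosen with earlier results of these data known. Positions came from GENCODE v44 and promoters from RefSeq, both on GRCh38. Alternatives were other pseudocounts, filters, scaling, thresholds, limma-voom on recovered reads, 1 fit over 9 libraries, a replicate block, removal of length and GC trends, and leaving out single libraries.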

Additional observations from a re-analysis of the deposited data

Results flagged for a closer look

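COL5A1, COL5A2 and COL18A1 stood out because the 2 knockdowns moved them in opposite directions against the same siC libraries and the direct comparison of the knockdowns was called as well. The log2 difference, siIGF2BP1 minus siSRF, was 3.75 for COL5A1, 1.67 for COL5A2 and 1.40 for COL18A1 (limma, adjusted p = 1.1e-05, 4.4e-05 and 1.4e-04), and every siIGF2BP1 library lay above and every siSRF library below all siC libraries for each of the 3 genes. The direct comparison held for all 3 without any single library. It uses the same knockdown libraries, and the genes were picked for their opposite directions, so its call was largely fixed by that choice. Against siC, the siIGF2BP1 call of COL5A2 was lost in 3 of 6 such fits (adjusted p up to 0.0121), that of COL18A1 in 2 (up to 0.0108), and the siSRF call of COL5A2 in 1 (0.0102), while both calls of COL5A1 held. The siSRF call of COL18A1 against siC was lost in 5 of 6 such fits (adjusted p up to 0.0165) and with the length and GC trends removed. Groups of 3 libraries were not examined for outlying samples.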

How the results depend on the processing

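No collagen call changed direction under any alternative. COL12A1, COL4A1, COL4A2 and COL5A1 were called with siIGF2BP1 in every fit, including those with a replicate block. With the replicate number as a block, the collagen calls became 4 higher and 0 lower for siIGF2BP1 against siC, 1 higher and 0 lower for siSRF against siC, and 7 higher and 0 lower between the knockdowns, and the synthesis list 6 higher and 0 lower for siIGF2BP1 and 3 higher and 5 lower for siSRF. Same-numbered libraries shared only a number (correlations of deviations -0.0438 to 0.0186 over 14168 genes), and fewer residual degrees of freedom remain in this fit. Limma-voom on recovered reads called 4 collagens higher with siSRF (COL12A1, COL16A1, COL1A1 and COL6A3) and 6 lower. COL4A1 and COL8A1 were among these 6 (adjusted p = 2.2e-04 and 2.3e-04, limma-voom). Between the knockdowns, limma-voom called 2 collagens lower (COL10A1 and COL17A1). In the synthesis list it called 3 lower with siIGF2BP1, 10 higher and 21 lower with siSRF. One fit over 9 libraries gave 2 collagens higher with siSRF and also called COL4A1 lower with siSRF. In the list it gave 2 lower with siIGF2BP1 and 16 lower with siSRF. At a threshold of 0.05, 3 collagens were higher with siSRF and 2 lower between the knockdowns, and COL4A1 was also called lower with siSRF. The list then gave 2 lower with siIGF2BP1, 11 higher and 20 lower with siSRF. Without length and GC trends, 4 collagens were higher with siSRF and 1 lower between the knockdowns (COL12A1), with medians of 0.27 and 0.45. The cause was not tested.

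The median log2 fold change of the collagens tested with siIGF2BP1 was 0.74 and became 0.49 with a pseudocount of 1 FPKM, 0.20 with no filter on low values and 0.59 without the length trend. Between the knockdowns it was 0.52 and became 0.43 with a pseudocount of 1 FPKM, 0.0461 with no filter, 0.69 with a filter of 1 FPKM and 0.59 in the fit over 9 libraries. With no filter, P4HB was not called, leaving 0 lower in the list. Leaving out single libraries gave 5 to 8 collagens higher and 0 to 0 lower with siIGF2BP1, 1 to 1 higher and 2 to 4 lower with siSRF, and 8 to 10 higher between the knockdowns. In the list it gave 14 to 17 higher and 0 to 0 lower with siIGF2BP1, 5 to 6 higher and 6 to 9 lower with siSRF, and 22 to 26 higher between the knockdowns. The median then ranged from 0.70 to 0.83 with siIGF2BP1, from -0.02 to 0.10 with siSRF and from 0.51 to 0.66 between the knockdowns. At 6421764 to 9416175 reads per library, COL5A3, with 53 reads in all, was called in some fits and not in others.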
